A study of Mus musculus with 22 samples.

Results

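The 9 genes described here encode the transcription factor TCF1 (Tcf7) and other factors and receptors of naive and stem-like memory T cells: Lef1, Id3, Il7r, Bach2, Foxo1, Dapl1, Satb1 and Myb. They were chosen by symbol, with earlier results of these data known, from the 24091 gene names of a read count table. All 9 had enough counts to be tested. RNA was sequenced from donor T cells taken back from mice after haematopoietic cell transplantation, in 22 libraries and 8 groups, to examine the IL-2 and STAT5 pathway. Wild-type C57BL/6 mice gave spleen and bone marrow cells, and the recipients were lethally irradiated wild-type BALB/c mice. Every recipient received an antibody every other day between day 0 and day 6 after transfer, which was an IL-2-binding monoclonal antibody (anti-IL-2) or control IgG. On day 7 donor CD8 and CD4 T cells were sorted from colon, called gut here, and from spleen. Each anti-IL-2 group held 3 libraries, each spleen IgG group held 3, and each gut IgG group held 2. The labels name 3 batches, 181201, 181212 and 190306, and batch 181201 has no gut IgG library. Ages of the mice are not given in the sources used here, and PD-L1-lacking recipients, named in the title, were not analysed here. Which animals stand behind the libraries of a batch, and whether any were pooled, is not stated, so p-values measure the spread between these libraries.

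TCF1 and its close relative LEF1 bind DNA through an HMG box, recruit either Groucho-type repressors or beta-catenin, and keep T cells able to self-renew. IL-2 acts through its receptor on the transcription factor STAT5, which favours effector differentiation, and strong IL-2 signals are known to lower Tcf7, Bcl6 and Il7r RNA in activated T cells. FOXO1, which is shut out of the nucleus by AKT signalling, drives genes of naive cells such as Il7r and Ccr7. In transplantation, T cells with high TCF1 are known as a less differentiated pool that persists.

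Total counts per library ran between 14628806 and 24518362, and no pair of libraries of a group agreed within sampling noise. CD8 libraries held 912 to 2130.1 CPM (counts scaled to library size with TMM normalisation) of Cd8a and 0.321 to 7.21 CPM of Cd4, and CD4 libraries held 0.115 to 3.60 CPM of Cd8a and 1802 to 2610 CPM of Cd4. For 5 CD8 IgG libraries the description names the other tissue, and the source name was used. Over 100 genes chosen as higher in gut CD4 libraries, the mean log2 CPM of gut CD8 libraries was 5.74 to 6.02 with anti-IL-2 and 5.82 to 6.01 with IgG, and that of spleen CD8 libraries was 3.66 to 3.89 and 3.57 to 3.93, so the source names separated the tissues.

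Libraries of batch 190306 ran against their treatment labels. Il2ra, the IL-2 receptor alpha chain, and Socs2, a feedback inhibitor, are both raised by STAT5. In all 6 pairs of batches 181201 and 181212 both genes were lower in the anti-IL-2 library, with log2 differences between -2.05 and -1.11 for Il2ra and between -3.77 and -1.89 for Socs2. In all 4 pairs of batch 190306 both were higher in the library labelled anti-IL-2, by 1.56 to 1.83 for Il2ra and by 2.65 to 4.64 for Socs2. Values of batch 190306 are therefore given by label beside the others, treatment tests are given both without that batch and with it, and the cause was not tested.

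All 9 are protein-coding genes, placed here by GENCODE M21 on mm10. Tcf7 is at chr11:52252371-52283014 on the minus strand, Lef1 at chr3:131110471-131224356 on the plus strand, Id3 at chr4:136143497-136145755 on the plus strand, and Il7r at chr15:9505788-9530176 on the minus strand. Bach2 is at chr4:32238804-32586108, Foxo1 at chr3:52268336-52353221 and Dapl1 at chr2:59484653-59505020, all on the plus strand. Satb1 is at chr17:51736187-51833290 and Myb at chr10:21124935-21160984, both on the minus strand. Antisense genes overlap 13.75% of the exon bases of Lef1 (Gm43352), 7.78% of Foxo1 (Gm20402), 6.26% of Myb (Gm26577) and 5.40% of Bach2 (Bach2os). How strand was used in counting is not given in the sources used here, so reads of these pairs cannot be told apart.

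Promoter windows of RefSeq on GRCm38.p6 matched all 9 genes, in 17 windows of the 250 bases before a start. They were searched on both strands for a STAT motif (TTCNNNGAA), TCF and LEF motifs (CTTTGA or else CTTTGT), a FOXO motif (GTAAACA) and AP-1 or BACH motifs (TGACTCA or else TGAGTCA). The STAT motif was in 2 of 17 windows, those of Il7r and Bach2, and in 7.02% of 32851 mouse windows. TCF and LEF motifs were in 4 windows, of Lef1, Bach2 and Satb1, against 27.6% of all windows, the FOXO motif was in 1 window, that of Dapl1, against 3.17%, and AP-1 or BACH motifs were in 0 windows, against 4.46%. Windows of a gene can overlap, and the TCF or LEF matches of Satb1 are the same site in overlapping windows. A match is a description of letters, and no binding was measured. Below are 3 windows, each with a motif: Dapl1 and Bach2, whose RNA moved with Tcf7, and its relative Lef1, whose RNA did not. The windows of Tcf7 itself and of Id3, which also moved with Tcf7, held none of the motifs. Nor did the other Lef1 windows, and none of these is shown. The 3 windows are written 5′ to 3′ on the plus strand, with motif letters in capitals. For Dapl1 (chr2:59484403-59484652, FOXO motif 164 bases before the start), Bach2 (chr4:32417185-32417434, STAT motif at 140 and a TCF or LEF motif at 93 bases before a start within the gene) and Lef1 (chr3:131156044-131156293, TCF or LEF motifs at 180, 146 and 120 bases before another start within the gene) they read:
Dapl1: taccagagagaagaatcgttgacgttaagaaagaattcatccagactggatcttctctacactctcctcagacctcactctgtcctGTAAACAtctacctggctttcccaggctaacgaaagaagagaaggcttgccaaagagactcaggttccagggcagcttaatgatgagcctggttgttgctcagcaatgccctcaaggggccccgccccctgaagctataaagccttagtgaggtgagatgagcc
Bach2: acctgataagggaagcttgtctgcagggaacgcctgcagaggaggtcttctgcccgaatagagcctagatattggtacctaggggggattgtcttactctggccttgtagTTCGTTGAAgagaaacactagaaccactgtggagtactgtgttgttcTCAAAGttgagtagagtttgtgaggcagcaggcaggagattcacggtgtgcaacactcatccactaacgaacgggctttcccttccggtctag
Lef1: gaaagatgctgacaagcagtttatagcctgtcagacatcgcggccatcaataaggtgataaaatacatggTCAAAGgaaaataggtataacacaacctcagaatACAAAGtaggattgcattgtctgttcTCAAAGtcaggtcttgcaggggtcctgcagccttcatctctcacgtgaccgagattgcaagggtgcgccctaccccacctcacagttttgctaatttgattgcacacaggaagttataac

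Compared per kilobase of exon, Tcf7 was the most abundant of the 9 transcripts, with a median level of 161 CPM per kb over the 22 libraries. Il7r followed at 86.4, and Satb1, Foxo1 and Lef1 lay close together at 22.05, 21.8 and 19.2 CPM per kb. Id3 was at 7.34, Myb at 4.90, Dapl1 at 4.11 and Bach2 at 1.82 CPM per kb. Tcf7 and Dapl1 had wide ranges, 14.7 to 584 and 0.245 to 29.7 CPM per kb, and Foxo1 stayed between 18.7 and 31.5. In bulk samples fewer cells of a type and less RNA per cell cannot be told apart.

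In batches 181201 and 181212 Tcf7, Dapl1, Id3 and Bach2 rose in anti-IL-2 libraries of CD8 and CD4 cells of the spleen and of CD8 gut cells, and Tcf7 and Dapl1 rose in CD4 gut cells too. Fold changes of Tcf7 were 4.91 in CD8 spleen, 2.58 in CD4 spleen, 4.73 in CD8 gut and 2.04 in CD4 gut cells. Lef1 and Satb1 fell in CD8 gut cells and Satb1 fell in CD4 gut cells, and Il7r passed the test in no population. Tests are edgeR quasi-likelihood tests over 13073 genes, with batch in the model, 5 residual degrees of freedom and Benjamini-Hochberg adjustment, and a call is an adjusted p under 0.05. Each gut IgG group is a single library in these batches, and its spread is assumed to be that of the other groups.

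**Figure D1:**
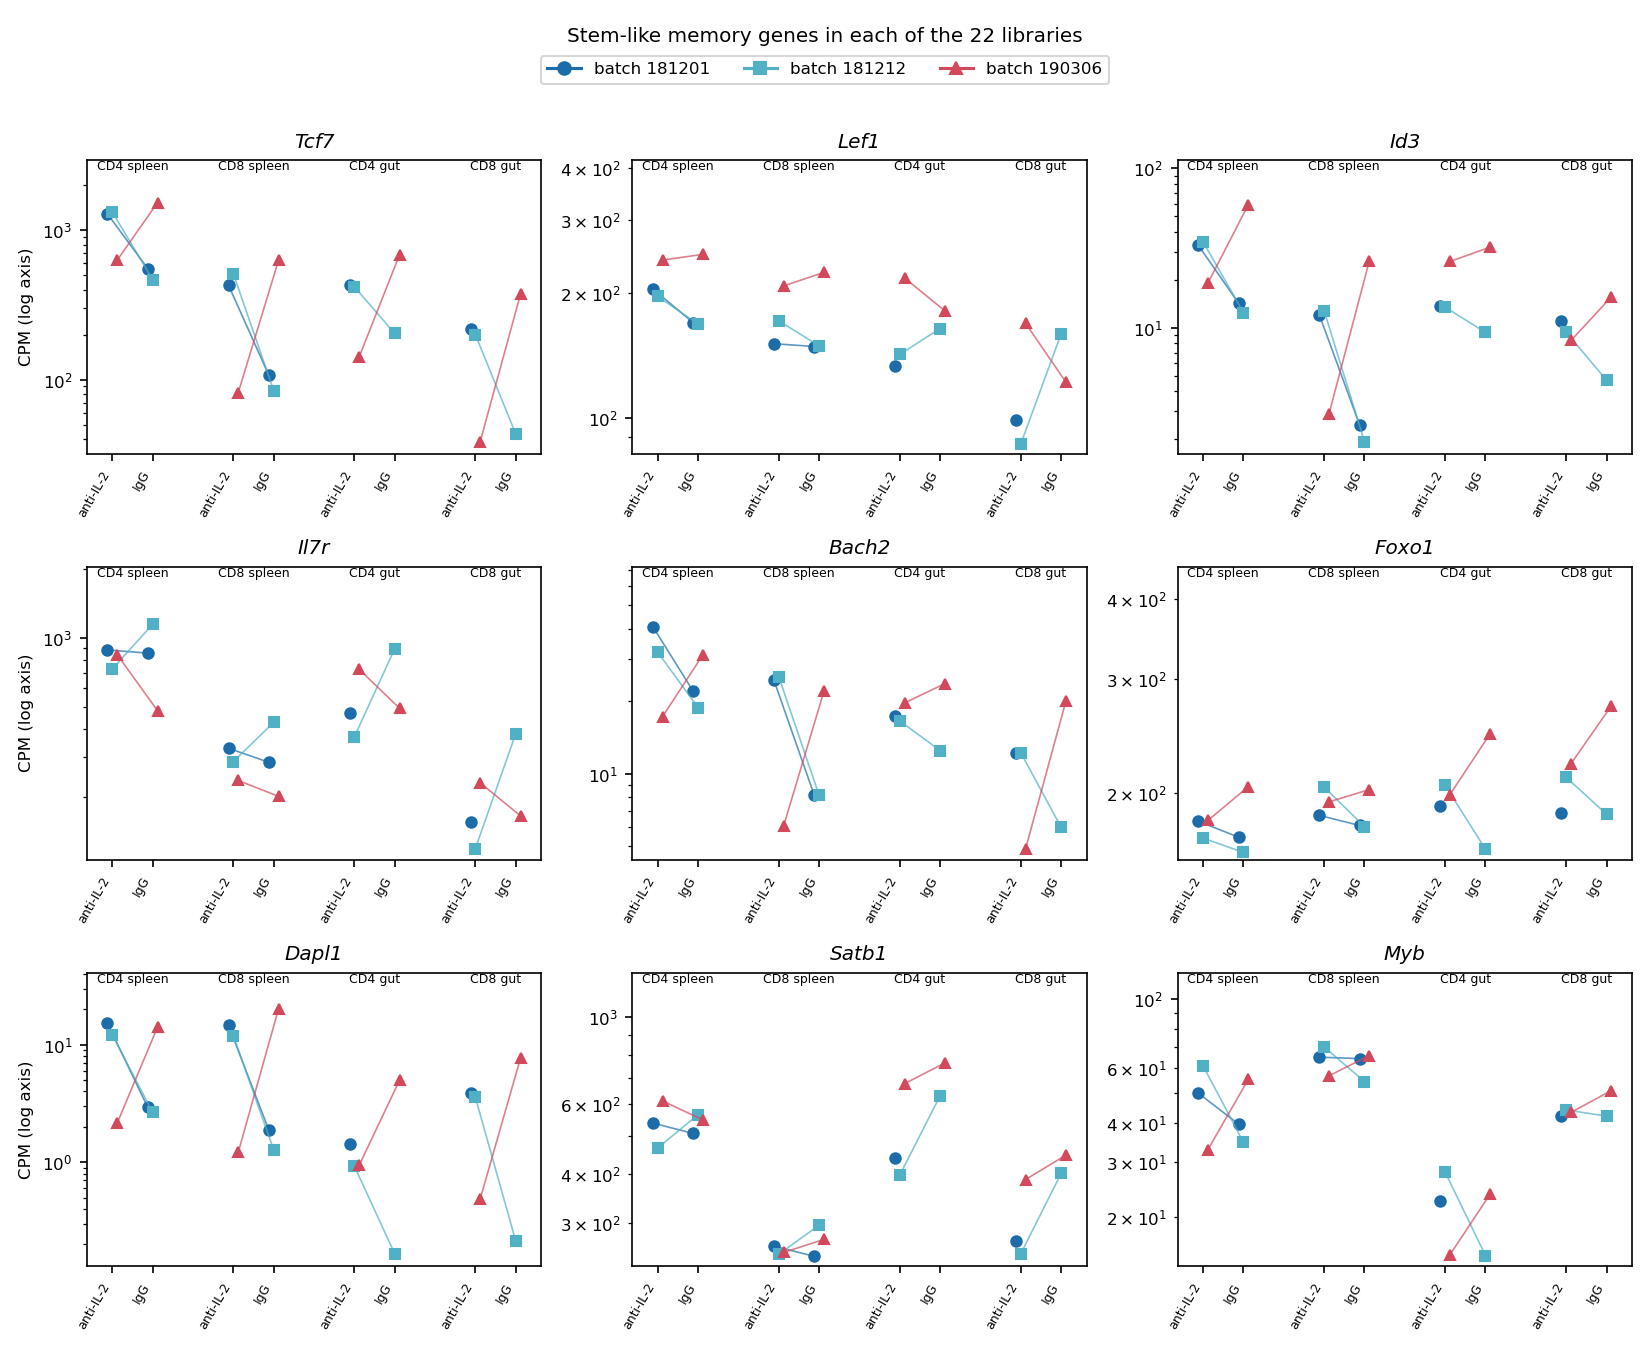
CPM of each of the 9 genes (log axis) in every library, grouped by population with anti-IL-2 left of IgG, where colour and symbol mark the batch and a line joins the 2 libraries of a batch. Tcf7, Id3, Bach2 and Dapl1 slope down towards IgG in batches 181201 and 181212 and up in batch 190306, for instance 1533 CPM of Tcf7 in the CD4 spleen library of batch 190306 labelled IgG.

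Tcf7, which encodes TCF1, held 429, 513 and 81.6 CPM in CD8 spleen libraries labelled anti-IL-2 of batches 181201, 181212 and 190306, against 107, 84.5 and 629.7 CPM in those labelled IgG. In CD4 spleen cells it held 1288, 1326 and 631 CPM with anti-IL-2 and 554, 469 and 1533 CPM with IgG. The first 2 batches had no overlap between treatments in either cell type, and the order was turned round in batch 190306. In CD8 gut cells Tcf7 held 219.9, 200.4 and 38.5 CPM with anti-IL-2, against 43.3 and 375 CPM with IgG in batches 181212 and 190306. CD4 gut cells held 428, 419 and 142 CPM with anti-IL-2 and 204 and 687 CPM with IgG. Both gut populations thus showed the same split by batch. Over batches 181201 and 181212 the log2 fold change of Tcf7 was 2.30 ± 0.12 (SE) in CD8 spleen, 1.37 ± 0.12 in CD4 spleen, 2.24 ± 0.17 in CD8 gut and 1.03 ± 0.15 in CD4 gut cells, with edgeR adjusted p-values of 6.86e-06, 4.15e-05, 0.000148 and 0.00353.

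Lef1, the relative of TCF1 that shares many of its sites, moved differently. CD8 gut cells held 98.8, 86.4 and 169 CPM of Lef1 with anti-IL-2 and 159 and 122 CPM with IgG, so both anti-IL-2 libraries of the first 2 batches lay below the IgG library. In CD4 gut cells the values were 133, 142 and 217 CPM with anti-IL-2 and 164 and 181 CPM with IgG. CD4 spleen libraries held 204, 196 and 239.9 CPM with anti-IL-2 and 169, 168 and 248 CPM with IgG. Spleen levels thus differed by little, and in CD8 spleen cells the libraries spanned 151 to 208 CPM with anti-IL-2 and 148 to 224 CPM with IgG. The edgeR log2 fold change of Lef1 over batches 181201 and 181212 was -0.78 ± 0.10 in CD8 gut (adjusted p = 0.000424), -0.24 ± 0.10 in CD4 gut (adjusted p = 0.123), 0.26 ± 0.08 in CD4 spleen (adjusted p = 0.0299) and 0.10 ± 0.08 in CD8 spleen cells (adjusted p = 0.465). The CD4 spleen call was lost when any 1 of its 4 libraries was left out, with adjusted p-values of 0.0581 to 0.199.

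Id3 and Bach2 encode factors that hold effector differentiation back, Id3 by binding E proteins and BACH2 as a repressor at AP-1-type sites. In CD8 spleen cells Id3 held 12.1, 12.8 and 2.89 CPM in libraries labelled anti-IL-2 of the 3 batches and 2.46, 1.94 and 26.3 CPM in those labelled IgG. CD4 spleen cells held 32.9, 34.5 and 19.1 CPM of Id3 with anti-IL-2, against 14.3, 12.5 and 59.1 CPM with IgG. These are the same orders by batch as for Tcf7. Gut levels of Id3 were 11.1, 9.40 and 8.34 CPM with anti-IL-2 and 4.70 and 15.6 CPM with IgG in CD8 cells, and 13.8, 13.5 and 26.0 CPM with anti-IL-2 and 9.37 and 32.1 CPM with IgG in CD4 cells. Its log2 fold change was 2.48 ± 0.16 in CD8 spleen, 1.35 ± 0.12 in CD4 spleen and 1.08 ± 0.19 in CD8 gut cells (edgeR adjusted p = 1.3e-06, 6.9e-06 and 0.00319), and 0.51 ± 0.17 in CD4 gut cells, where it did not pass (adjusted p = 0.0700).

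Bach2 was scarcer per length but followed the same pattern. Its levels in CD8 spleen cells were 24.5, 25.3 and 6.05 CPM with anti-IL-2 and 8.14, 8.14 and 21.97 CPM with IgG. In CD4 spleen cells they were 40.8, 31.9 and 17.3 CPM with anti-IL-2 and 21.98, 18.8 and 31.1 CPM with IgG. The treatments did not overlap in batches 181201 and 181212. CD8 gut cells held 12.2, 12.2 and 4.88 CPM of Bach2 with anti-IL-2 and 5.99 and 20.03 CPM with IgG, and CD4 gut cells held 17.3, 16.6 and 19.7 CPM with anti-IL-2 and 12.5 and 23.7 CPM with IgG. The edgeR log2 fold change of Bach2 was 1.6 ± 0.12 in CD8 spleen (adjusted p = 5.41e-06), 0.84 ± 0.11 in CD4 spleen (0.000133), 0.97 ± 0.18 in CD8 gut (0.00397) and 0.39 ± 0.16 in CD4 gut cells (0.123).

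Dapl1, a small protein of the death-associated protein family whose RNA marks naive and stem-like memory T cells, had the largest treatment differences of the 9. CD8 spleen libraries held 14.65, 11.9 and 1.21 CPM of it with anti-IL-2, against 1.88, 1.27 and 20.1 CPM with IgG, and CD4 spleen libraries held 15.2, 12.1 and 2.15 CPM with anti-IL-2, against 2.92, 2.65 and 14.1 CPM with IgG. Levels in gut were lower, at 3.89, 3.57 and 0.488 CPM with anti-IL-2 and 0.214 and 7.70 CPM with IgG in CD8 cells, and at 1.42, 0.926 and 0.943 CPM with anti-IL-2 and 0.166 and 4.98 CPM with IgG in CD4 cells. The gut IgG libraries of batch 181212 thus sat below every other library. The log2 fold change of Dapl1 was 3.07 ± 0.19 in CD8 spleen, 2.30 ± 0.18 in CD4 spleen, 3.92 ± 0.41 in CD8 gut and 2.61 ± 0.53 in CD4 gut cells, with edgeR adjusted p-values of 1.04e-06, 1.93e-06, 0.000148 and 0.00693. Gut values rest on few reads: in batch 181212 there were 15 reads with anti-IL-2 and 3 with IgG in CD4 cells, a CPM ratio of 5.57 with an exact 95% counting interval of 1.58 to 30.0, and 63 and 4 reads in CD8 cells, a ratio of 16.7 with an interval of 6.20 to 63.1. The intervals cover counting error only, and the CD4 gut call was not made by DESeq2 (adjusted p = 0.0615).

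Il7r encodes the alpha chain of the IL-7 receptor, which naive and memory cells need to survive. In CD8 gut cells Il7r held 155, 119 and 231 CPM with anti-IL-2, against 379.8 and 166 CPM with IgG, and in CD4 gut cells 467, 368 and 728 CPM with anti-IL-2, against 896 and 491 CPM with IgG. The anti-IL-2 libraries of batches 181201 and 181212 thus lay below the IgG library of batch 181212, with log2 fold changes of -1.49 ± 0.35 in CD8 and -1.11 ± 0.35 in CD4 cells that did not pass the edgeR test (adjusted p = 0.0585 and 0.112). DESeq2 gave an adjusted p of 0.00662 for the CD8 value. In spleen Il7r ran 287 to 328 CPM with anti-IL-2 and 285 to 426 CPM with IgG in CD8 cells, and 731 to 886 CPM with anti-IL-2 and 858 to 1148 CPM with IgG in CD4 cells of these batches, and log2 fold changes were -0.22 ± 0.29 and -0.30 ± 0.28 (edgeR adjusted p = 0.721 and 0.533). Within batches Il7r was higher with anti-IL-2 in 2 of 2 pairs of batch 181201, in 0 of 4 of batch 181212 and in 4 of 4 of batch 190306.

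Foxo1, Satb1 and Myb encode nuclear factors. FOXO1 is the forkhead factor that drives Il7r, SATB1 organises chromatin in developing T cells, and MYB supports self-renewal of progenitors. Foxo1 RNA varied least, between 162 and 273 CPM over all 22 libraries, and its log2 fold change was 0.31 ± 0.09 in CD4 gut cells (edgeR adjusted p = 0.0466), where it held 191, 206 and 199 CPM with anti-IL-2 and 164 and 247 CPM with IgG. This call was lost with DESeq2 (adjusted p = 0.0700), with RLE size factors (adjusted p = 0.0511), without the batch block (adjusted p = 0.103) and without either anti-IL-2 library (adjusted p = 0.0863 for batch 181201 and 0.234 for batch 181212). In the other 3 populations its log2 fold changes were 0.09 to 0.12 and did not pass.

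Satb1 held 270.0, 251 and 387 CPM with anti-IL-2 in CD8 gut cells, against 401 and 446 CPM with IgG, and 438, 397 and 677 CPM with anti-IL-2 in CD4 gut cells, against 631 and 764 CPM with IgG. Here the libraries of batch 190306 did not turn the order round, although the difference was smaller there. Within batches Satb1 was higher with anti-IL-2 in 2 of 2 pairs of batch 181201, which are of spleen, in 0 of 4 of batch 181212 and in 1 of 4 of batch 190306. In batch 181212, which holds the only gut IgG libraries of the test below, spleen differences were -0.28 in CD4 and -0.24 in CD8 cells. The log2 fold change of Satb1 over batches 181201 and 181212 was -0.63 ± 0.13 in CD8 gut and -0.60 ± 0.13 in CD4 gut cells (edgeR adjusted p = 0.0105 and 0.0129), and neither passed without the anti-IL-2 library of batch 181212 (adjusted p = 0.0865 and 0.100). Myb held 50.0, 61.1 and 33.0 CPM with anti-IL-2 in CD4 spleen cells, against 39.7, 34.8 and 55.3 CPM with IgG, and 22.5, 27.9 and 15.2 CPM with anti-IL-2 in CD4 gut cells, against 15.1 and 23.8 CPM with IgG. It rose by 0.58 ± 0.13 in CD4 spleen and by 0.78 ± 0.18 in CD4 gut cells on the log2 scale (edgeR adjusted p = 0.00624 and 0.0187), and its values in CD8 cells were 0.18 ± 0.12 in spleen and 0.06 ± 0.16 in gut (adjusted p = 0.429 and 0.869). Both Myb calls were lost without the anti-IL-2 library of batch 181212 of the same population (adjusted p = 0.0608 in spleen and 0.136 in gut), and the spleen call also without the IgG library of that batch (adjusted p = 0.0743).

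**Figure D2:**
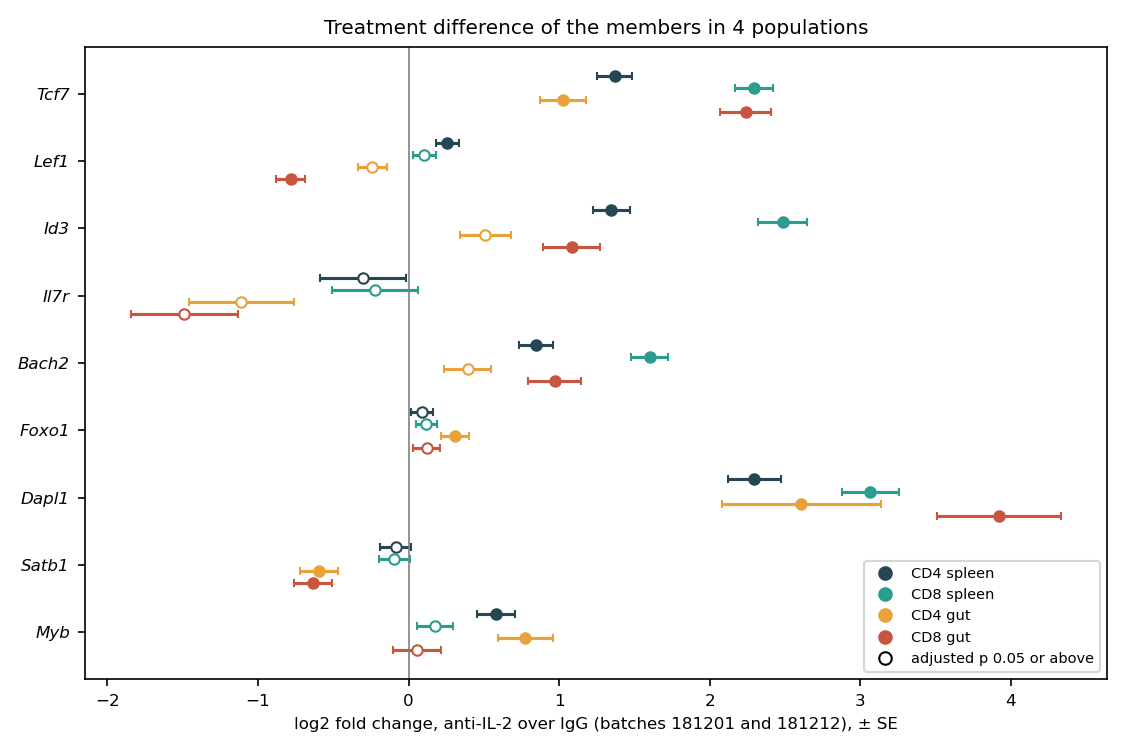
Log2 fold change of anti-IL-2 over IgG in batches 181201 and 181212 for the 9 genes, with bars of 1 SE, coloured by population and filled where the adjusted p is under 0.05. Tcf7 and Dapl1 are filled in all 4 populations, with Tcf7 between 1.03 and 2.30, and Lef1 and Satb1 are filled left of 0 in CD8 gut cells.

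Counted over the 9 genes, 4 rose and 0 fell in CD8 spleen cells, where 6.06% of all genes tested were called higher and 6.08% lower. In CD4 spleen cells 6 rose and 0 fell, where 9.8% of genes were called higher and 10.3% lower. Of these 6, Lef1 and Myb lost their calls without single libraries, as given above. In CD8 gut cells 4 rose and 2 fell (5.51% of genes higher and 5.22% lower), and in CD4 gut cells 4 rose and 1 fell (6.04% higher and 5.68% lower). The median log2 fold change of the 9 was 0.18 in CD8 spleen, 0.58 in CD4 spleen, 0.12 in CD8 gut and 0.39 in CD4 gut cells, and that of all genes lay between -0.0048 and 0.0116. In CD4 gut cells the counts were 2 higher and 0 lower without the anti-IL-2 library of batch 181212. With all 22 libraries under their labels edgeR called 0 of 12841 genes in any population (0%), none of the 9 among them, and unadjusted p-values were under 0.05 for 148 genes in CD8 spleen, 282 in CD4 spleen, 953 in CD8 gut and 750 in CD4 gut cells. DESeq2 called 0, 0, 9 and 8 genes in these populations. The labelled log2 fold change of Tcf7 was then 0.61 ± 1.08 in CD8 spleen, 0.51 ± 1.01 in CD4 spleen, -0.15 ± 1.22 in CD8 gut and -0.22 ± 1.17 in CD4 gut cells.

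**Figure D3:**
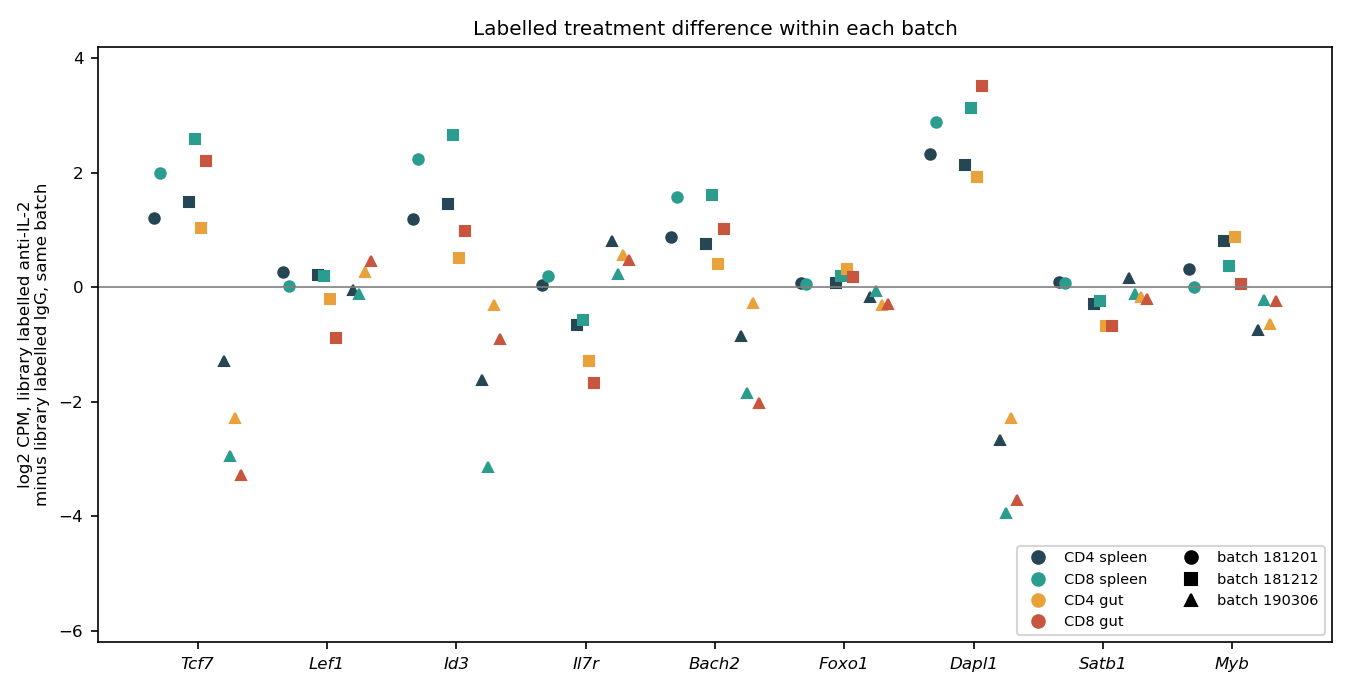
Difference in log2 CPM between the library labelled anti-IL-2 and the library labelled IgG of the same batch and population, for each of the 9 genes, with colour for the population and symbol for the batch. Differences of Tcf7 lie between 1.04 and 2.60 in batches 181201 and 181212 and between -3.28 and -1.28 in batch 190306.

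In a fit of all 22 libraries, each anti-IL-2 library of batch 190306 had a term of its own, called the own difference here. The shift of that batch was shared by the 4 populations and came from its IgG libraries. A value is thus not the difference of a single pair. For Dapl1 in CD4 spleen cells it was -5.97, where pair differences were 2.34, 2.15 and -2.66 in the 3 batches. Dapl1 and Tcf7 differed most, by -6.76 ± 0.60 and -4.79 ± 0.57 on the log2 scale in CD8 spleen cells (edgeR adjusted p = 1.69e-05 and 0.000608). Tcf7, Bach2 and Dapl1 were lower in this contrast in all 4 populations, Id3 in 3 and Myb in 3. In CD8 spleen 5 genes were lower and 0 higher (9.35% and 9.22% of all genes tested), in CD4 spleen 5 lower and 1 higher (11.2% and 13.1%), in CD8 gut 4 lower and 2 higher (8.72% and 7.94%), and in CD4 gut 4 lower and 2 higher (9.91% and 11.5%). The genes higher in this contrast were Il7r in 3 populations and Satb1 in the gut populations. Within pairs, Tcf7, Id3, Bach2, Foxo1, Dapl1 and Myb each were higher with anti-IL-2 in 2 of 2 pairs of batch 181201 and in 4 of 4 of batch 181212, and in 0 of 4 pairs of batch 190306. The share of all genes that split in this way was not counted. Pair differences of Foxo1 were small, between -0.31 and 0.33, and its own difference passed in no population. Lef1 did not split in this way, with 2 of 2, 2 of 4 and 2 of 4 pairs higher. The own difference of this batch rests on 1 library per group. Without single libraries, calls of Il7r in CD4 spleen, Bach2 in CD4 gut, Myb in CD8 spleen and Satb1 in both gut populations were lost. Those of Tcf7, Dapl1 and Id3 passed each time. Il7r in CD4 spleen and Bach2 in CD4 gut cells also did not pass without the filter on low counts, nor did the latter with limma voom.

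Whether the treatment difference itself differed between cell types and tissues was tested as an interaction in batches 181201 and 181212. In spleen the difference of Tcf7 was larger in CD8 than in CD4 cells by 0.93 ± 0.17 and that of Id3 by 1.14 ± 0.21 on the log2 scale (edgeR adjusted p = 0.0397 and 0.0217), 2 of the 9 genes against 0.75% of all genes tested, and 0 were smaller against 0.168%. Bach2 was at 0.76 ± 0.17 (adjusted p = 0.0554). Without the filter on low counts Bach2 passed and Tcf7 did not, and with DESeq2 Id3 did not. In gut none of the 9 passed between CD8 and CD4 cells, where 0.0612% of all genes were higher and 0.0229% lower, 927 had an unadjusted p under 0.05, and DESeq2 called 1 of the 9. The value for Tcf7 there was 1.21 ± 0.21 (edgeR adjusted p = 0.0963, DESeq2 adjusted p = 7.44e-08). Between tissues, the log2 fold changes of Id3 and Lef1 were lower in gut than in spleen. That of Id3 was above 0 in both tissues and nearer to 0 in gut, and that of Lef1 was above 0 in spleen and below 0 in gut. By themselves the Lef1 values of CD8 spleen and CD4 gut cells did not pass, and its CD4 spleen call was lost without single libraries. For Id3 the change was -1.40 ± 0.26 in CD8 and -0.84 ± 0.21 in CD4 cells (edgeR adjusted p = 0.0144 and 0.0344), and for Lef1 it was -0.89 ± 0.12 and -0.50 ± 0.12 (adjusted p = 0.00403 and 0.0322). That makes 2 of the 9 lower and 0 higher in each cell type, against 1.07% of all genes lower and 1.32% higher in CD8 cells and 1.94% lower and 3.45% higher in CD4 cells. In CD4 cells the Id3 call was lost with DESeq2, and those of Id3 and Lef1 without the batch block. Tcf7 was at -0.05 ± 0.20 in CD8 and -0.34 ± 0.19 in CD4 cells (adjusted p = 0.959 and 0.369). The CD8 against CD4 calls of Tcf7 and Id3 and the calls of Id3 and Lef1 between tissues in CD4 cells were lost without single libraries, with edgeR adjusted p-values up to 0.179, and so was that of Id3 in CD8 cells without the spleen IgG library of batch 181212 (adjusted p = 0.0614).

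Gut and spleen were compared within 6 blocks of batch and labelled treatment, so that both tissues of a block carry the same label, over 12841 genes and 22 libraries. Tcf7, Dapl1, Myb, Lef1 and Il7r were lower in gut than in spleen in both cell types, and Foxo1 was slightly higher. In CD8 cells 5 of the 9 were lower and 2 higher (23% and 24.8% of all genes tested), and in CD4 cells 5 were lower and 1 higher (22.7% and 26.6%). For Tcf7 the log2 fold change was -0.98 ± 0.25 in CD8 and -1.61 ± 0.26 in CD4 cells (edgeR adjusted p = 0.00542 and 0.000136), and it was lower in gut in 5 of 5 blocks for each. Dapl1 was at -1.61 ± 0.32 in CD8 and -2.59 ± 0.36 in CD4 cells (adjusted p = 0.000696 and 2.24e-05). Myb, lower in 5 of 5 blocks too, was at -0.50 ± 0.10 and -1.14 ± 0.11 (adjusted p = 0.000709 and 2.33e-07). Lef1 was at -0.52 ± 0.12 and -0.35 ± 0.12, Il7r at -0.55 ± 0.17 and -0.50 ± 0.17, and Foxo1 at 0.15 ± 0.05 in each, with edgeR adjusted p-values between 0.00258 and 0.0276. Satb1 rose in CD8 gut cells by 0.36 ± 0.11 (adjusted p = 0.0110) and was at 0.06 ± 0.11 in CD4 cells (0.694). Id3 and Bach2 did not pass in either cell type. With batch 190306 left out, Lef1, Foxo1 and Satb1 no longer passed, Bach2 did, at -0.80 in CD8 and -1.02 in CD4 cells, and so did Id3 in CD4 cells, at -1.10. Without single libraries, calls of Lef1 in CD4 cells and of Il7r and Foxo1 in both cell types were lost, while those of Tcf7, Dapl1 and Myb passed each time. With the 8 groups and batch in the model in place of blocks, Tcf7 and Dapl1 did not pass in CD8 (edgeR adjusted p = 0.441 and 0.286) or in CD4 cells (0.192 and 0.0940), nor did Myb in CD8 cells (0.0612).

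**Figure D4:**
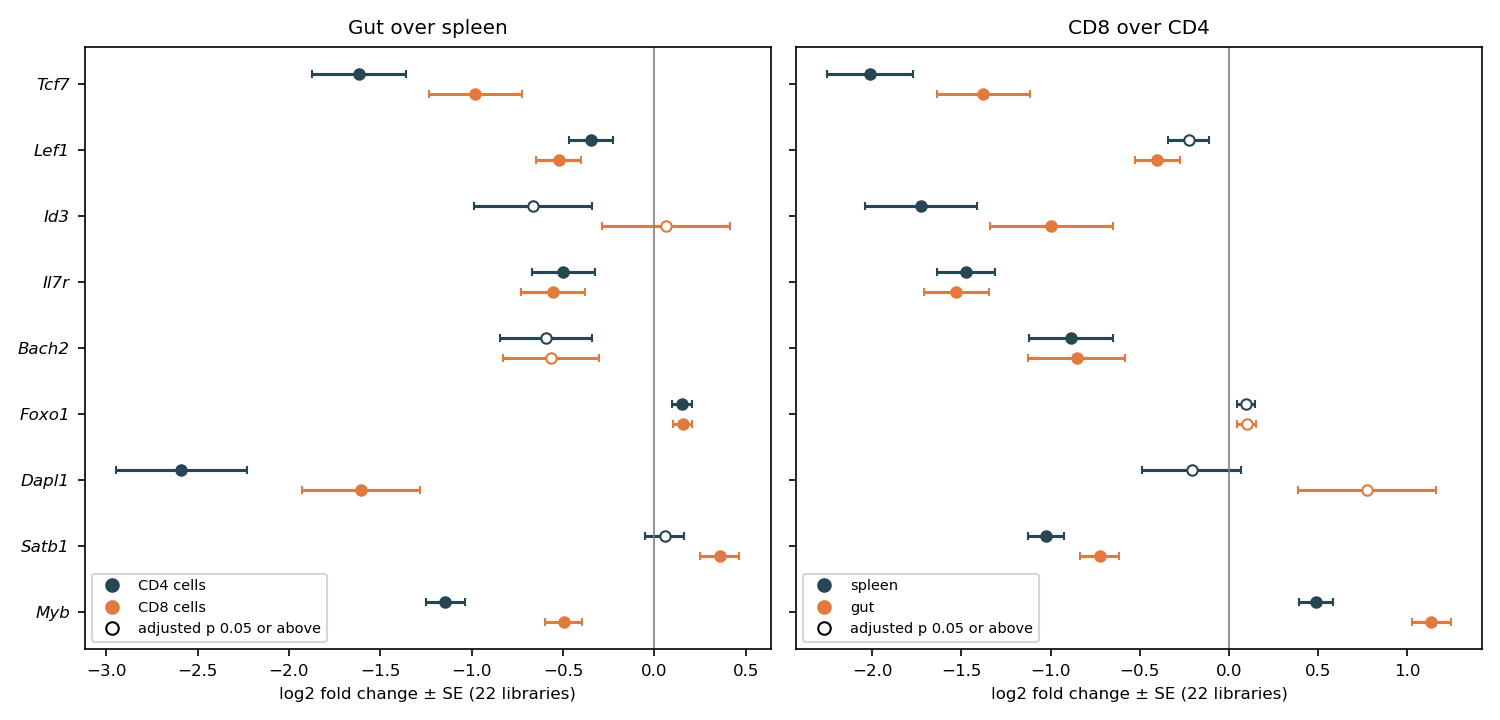
Log2 fold change ± SE of the 9 genes over 22 libraries, gut over spleen on the left and CD8 over CD4 on the right, filled where the adjusted p is under 0.05. Tcf7 lies left of 0 in each comparison, between -2.01 and -0.98, and Myb lies right of 0 for CD8 over CD4 and left of 0 for gut over spleen.

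CD8 cells held less of most of these RNAs than CD4 cells of the same tissue. In spleen 5 of the 9 were lower in CD8 cells and 1 higher (28.9% and 29.2% of all genes tested), and in gut 6 were lower and 1 higher (22.9% and 23.1%). Tcf7 was at -2.01 ± 0.24 in spleen and -1.38 ± 0.26 in gut (edgeR adjusted p = 5.45e-06 and 0.000616), and was lower in CD8 cells in 6 of 6 and 5 of 5 blocks. Il7r was at -1.47 ± 0.16 and -1.53 ± 0.18 (adjusted p = 1.8e-06 and 6.95e-06), and Satb1 at -1.03 ± 0.10 and -0.72 ± 0.11 (adjusted p = 2.52e-07 and 5.19e-05). Id3 was at -1.73 ± 0.31 in spleen and -1.0 ± 0.35 in gut, and Bach2 at -0.88 ± 0.23 and -0.86 ± 0.27 (edgeR adjusted p between 0.000241 and 0.0287). Myb went the other way and was higher in CD8 cells, by 0.49 ± 0.09 in spleen and 1.13 ± 0.11 in gut (adjusted p = 0.000266 and 2.98e-07). Lef1 was lower in gut (-0.40 ± 0.13, adjusted p = 0.0154), and Dapl1 and Foxo1 did not pass in either tissue. With batch 190306 left out, Id3 in gut and Lef1 in gut no longer passed (adjusted p = 0.165 and 0.161) and Dapl1 in gut did, at 1.55. With the 8 groups and batch in place of blocks, Tcf7 and Bach2 passed in neither tissue (edgeR adjusted p = 0.0685 and 0.133 in spleen, 0.303 and 0.2998 in gut), nor did Id3 in gut (0.323).

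Other genes of naive and stem-like memory cells were examined in batches 181201 and 181212. Of 24 listed genes 13 rose and 0 fell in CD8 spleen cells, 12 rose and 0 fell in CD4 spleen cells, 8 rose and 3 fell in CD8 gut cells, and 7 rose and 2 fell in CD4 gut cells, with median log2 fold changes of 0.32, 0.42, 0.06 and 0.22. Of all genes tested, 6.06% rose and 6.08% fell in CD8 spleen, 9.8% rose and 10.3% fell in CD4 spleen, 5.51% rose and 5.22% fell in CD8 gut, and 6.04% rose and 5.68% fell in CD4 gut cells. Bcl6, a transcriptional repressor that follicular helper cells express, rose by 1.20 ± 0.14, 1.47 ± 0.11, 1.07 ± 0.16 and 0.83 ± 0.14 in that order (edgeR adjusted p of 0.00254 or less). Actn1, an actin crosslinker of naive cells, rose by 0.98 ± 0.07, 1.17 ± 0.07, 0.76 ± 0.09 and 0.90 ± 0.09 (adjusted p of 0.000318 or less). Slamf6, a receptor of the TCF1-high pool, rose by 1.27 ± 0.10 in CD8 spleen and 1.13 ± 0.10 in CD4 spleen cells (adjusted p = 3.31e-05 and 2.67e-05). The genes that fell in gut were S1pr1, Klf2 and Sidt1 in CD8 cells and S1pr1 and Cd55 in CD4 cells. S1pr1, the receptor for exit from tissue, was at -0.88 ± 0.12 in CD8 and -0.50 ± 0.12 in CD4 gut cells (adjusted p = 0.00152 and 0.0244). These lower genes were named after their values were seen.

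Of 21 tested partners of TCF and LEF factors and genes of the Wnt pathway, 4 or 5 passed in each population. In CD8 spleen cells 1 rose and 4 fell, in CD4 spleen cells 2 rose and 3 fell, in CD8 gut cells 1 rose and 4 fell, and in CD4 gut cells 1 rose and 3 fell, where 12.1%, 20.1%, 10.7% and 11.7% of all genes tested were called in either direction. Tle3, a Groucho-type corepressor that TCF1 can recruit, rose by 0.41 ± 0.06 in CD8 spleen and 0.45 ± 0.06 in CD4 spleen cells (edgeR adjusted p = 0.000688 and 0.000151). Tle1, of the same family, was at -0.63 ± 0.15 and -0.91 ± 0.17 (edgeR adjusted p = 0.0156 and 0.00213). Lrp5, a Wnt coreceptor, was at -0.77 ± 0.19 in CD8 spleen, -1.40 ± 0.19 in CD4 spleen, -1.38 ± 0.24 in CD8 gut and -2.04 ± 0.23 in CD4 gut cells (edgeR adjusted p of 0.0169 or less). Nkd1, a Wnt inhibitor, was at -1.90 ± 0.43 in CD8 spleen and -2.16 ± 0.48 in CD4 spleen cells (adjusted p = 0.0111 and 0.00579), and Bcl9, a beta-catenin partner, at 0.69 ± 0.15 in CD4 spleen cells (adjusted p = 0.00442).

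Of 14 tested FOXO1 target genes 5 rose and 0 fell in CD8 spleen, 6 rose and 0 fell in CD4 spleen, 4 rose and 3 fell in CD8 gut, and 4 rose and 2 fell in CD4 gut cells, against 5.51% to 9.8% of all genes tested that rose and 5.22% to 10.3% that fell in a population. Bcl6 and Ccr7 are among the genes that this list shares with the one above. Ccr7, the receptor for entry into lymph nodes, rose by 1.81 ± 0.20, 1.55 ± 0.16, 2.38 ± 0.44 and 1.91 ± 0.30 in these populations (edgeR adjusted p of 0.00604 or less), and Sesn3, a stress sensor, by 0.67 ± 0.10, 0.86 ± 0.09, 0.43 ± 0.12 and 0.40 ± 0.12 (adjusted p of 0.0450 or less). Of 5 E protein and ID genes, Tcf12, an E protein, rose by 0.21 ± 0.06 in CD8 and 0.26 ± 0.06 in CD4 spleen cells (adjusted p = 0.0309 and 0.00550), Id2, the counterpart of Id3 in effector cells, was at -0.47 ± 0.11 and -0.62 ± 0.11 (adjusted p = 0.0196 and 0.00303), and 0 genes passed in gut. Of 7 cytokine receptors that use or pair with the common gamma chain, 1 rose and 1 fell in CD8 spleen, 1 rose and 2 fell in CD4 spleen, 1 rose and 1 fell in CD8 gut and 1 rose and 2 fell in CD4 gut cells. Il2ra fell in all 4, with log2 fold changes of -1.78 ± 0.12, -2.01 ± 0.12, -1.24 ± 0.14 and -1.08 ± 0.14 (edgeR adjusted p of 0.00126 or less).

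Effector and cell cycle genes were counted in the same way, against 6.08% of all genes tested that fell in CD8 spleen and 10.3% in CD4 spleen cells. The shares that rose there were 6.06% and 9.8%. In gut 5.51% of genes rose and 5.22% fell in CD8 cells, and 6.04% rose and 5.68% fell in CD4 cells. Of 17 effector genes 6 fell and 1 rose in CD8 spleen, 8 fell and 1 rose in CD4 spleen, 0 fell and 0 rose in CD8 gut, and 1 fell and 4 rose in CD4 gut cells. Gzmb, the granzyme of killer cells, was at -1.16 ± 0.10 in CD8 and -1.67 ± 0.10 in CD4 spleen cells (edgeR adjusted p = 4.29e-05 and 1.93e-06), and at -0.14 ± 0.12 and 0.16 ± 0.12 in gut (adjusted p = 0.511 and 0.427). Of 14 proliferation genes 13 fell and 0 rose in each spleen population, and 5 rose and 0 fell in each gut population. Mki67, a marker of cycling cells, was at -0.59 ± 0.07 in CD8 and -0.84 ± 0.07 in CD4 spleen cells (adjusted p = 0.000175 and 4.23e-06), and its part in the differences of the 9 genes was not tested. Of 7 IL-2 and STAT5 readouts 0 rose in any population, and 4 fell in CD8 spleen, 5 in CD4 spleen, 4 in CD8 gut and 3 in CD4 gut cells. These lists were chosen with earlier results of the same data known, and their counts describe them without a test.

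Markers of other cells were low but moved with treatment in places. The sum of 12 macrophage markers in CD4 spleen cells was 183, 28.6 and 25.1 CPM in libraries labelled anti-IL-2 of the 3 batches, against 33.6, 13.7 and 145 CPM in those labelled IgG. In CD8 spleen cells it was 98.6, 51.7 and 54.7 CPM with anti-IL-2 and 48.2, 31.8 and 87.6 CPM with IgG. In gut, with IgG values of batches 181212 and 190306 only, it was 99.8, 94.8 and 52.5 CPM with anti-IL-2 and 43.1 and 72.7 CPM with IgG in CD8 cells, and 62.3, 44.0 and 16.7 CPM with anti-IL-2 and 34.4 and 32.4 CPM with IgG in CD4 cells. The sums thus had the order of Tcf7 in every pair of a batch and population. Vsig4, a marker of resident macrophages, was at 0 in the CD4 spleen libraries, while Cd68 and Marco of the same list were called higher there. Of 11 tested macrophage markers 1 was called in CD8 spleen (Cd68) and 2 in CD4 spleen cells (Cd68 and Marco). Of all genes tested, 12.1% were called in CD8 spleen and 20.1% in CD4 spleen cells. The part of the macrophage markers in the result was not tested. The Tcf7 difference in CD4 spleen cells was 1.27 to 1.47 with each of the 4 libraries of batches 181201 and 181212 left out in turn. The remaining libraries still held macrophage marker RNA, so this range does not test its part. Sums of 6 erythroid markers were 41.1 CPM in the CD4 and 18.2 CPM in the CD8 spleen anti-IL-2 library of batch 181201 and 3.21 CPM or less in the other libraries. Sums of 9 B cell markers were 13.7 CPM or less in batches 181201 and 181212. In these batches 5.51% of all genes tested rose and 5.22% fell in CD8 gut cells, and 6.04% rose and 5.68% fell in CD4 gut cells. Of 8 gut epithelium markers 4 rose and 0 fell in CD8 gut cells and 3 rose and 1 fell in CD4 gut cells in batches 181201 and 181212. Their sums in the 3 batches were 139, 88.9 and 119 CPM with anti-IL-2, against 76.7 and 67.7 CPM with IgG in batches 181212 and 190306, in CD8 cells, and 73.6, 53.1 and 126 CPM with anti-IL-2, against 61.5 and 39.6 CPM with IgG, in CD4 cells. Their part in the gut results was not tested.

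Across the 22 libraries, 9502 genes were ranked by Pearson's r of log2 CPM with Tcf7, as a description, since the libraries share batches, populations and treatments. Cxcr5, the chemokine receptor of follicular helper cells, which like Nsg2 is on the list of naive and stem-like genes, was at 0.988, followed by Nsg2 at 0.978, Sostdc1 at 0.960, and Tox2 and Patj at 0.95. With the mean of each population removed, Cxcr5 was at 0.981, Nsg2 at 0.968, Sostdc1 at 0.965, Ccr6 at 0.956 and Trerf1 at 0.95. Of the other 8 genes Bach2 was at 0.942 over all libraries and 0.909 with population means removed, Id3 at 0.807 and 0.794, and Dapl1, too low to be ranked, at 0.752 and 0.935. Myb was at 0.085 and 0.621, Foxo1 at -0.017 and 0.522, Satb1 at 0.358 and -0.203, Lef1 at 0.307 and -0.232, and Il7r at 0.369 and -0.639. The values of Il7r, Lef1 and Satb1 thus changed sign when population means were removed, those of Lef1 and Satb1 to small ones.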

How the data were processed

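Donor CD8 and CD4 T cells of 8 groups were measured in 22 mRNA libraries made with a stranded kit, per the labels' protocols. The authors deposited a single table that holds, for each gene symbol, the unnormalised count of reads. Per the submitters' processing notes, TopHat2 and HTSeq 0.9.1 were used with genome build mm10. Annotation, strand setting and filters are not given in the sources used here.

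The tests ran in edgeR 4.0.16 under R 4.3.3: filterByExpr on the group, TMM scaling, robust quasi-likelihood fits and Benjamini-Hochberg adjustment over all genes tested, with calls at 0.05. Log2 CPM used a prior count of 2. Batches pair the samples because the labels name them, and batch or a block of batch and treatment was in every fit. DESeq2 1.42.0, limma 3.58.1 (voom), RLE size factors, no filter on low counts, no batch block and leaving out each library were alternatives. The fits were tested on simulated data.

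The 9 genes, the other lists and the decision to test without batch 190306 were chosen with earlier results of these data known. All 9 genes are named, and from each other list at most 3 per direction with the smallest p in spleen. The 5 genes most like Tcf7 were taken where the mean log2 CPM reached 2.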

Additional observations from a re-analysis of the deposited data

Results flagged for a closer look

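The treatment difference of several genes differed between groups by a test of the difference itself (edgeR, Benjamini-Hochberg adjustment over all genes). Of the calls below in this paragraph, only that of Lef1 between tissues in CD8 cells passed without each single library. Tcf7 did not pass without the filter on low counts, and Id3 did not pass with DESeq2 in spleen or between tissues in CD4 cells. Of all genes tested, 0.75% were called larger in CD8 than in CD4 spleen cells. Lower in gut were 1.07% in CD8 and 1.94% in CD4 cells. The Lef1 values of CD8 spleen and CD4 gut cells did not pass alone. In batches 181201 and 181212 the treatment difference was larger in CD8 than in CD4 spleen cells for Tcf7, by 0.93 ± 0.17 on the log2 scale (adjusted p = 0.0397), and for Id3, by 1.14 ± 0.21 (adjusted p = 0.0217). The log2 fold change in gut minus that in spleen was -0.89 ± 0.12 in CD8 and -0.50 ± 0.12 in CD4 cells for Lef1 (adjusted p = 0.00403 and 0.0322), whose log2 fold changes were above 0 in spleen and below 0 in gut. It was -1.40 ± 0.26 in CD8 and -0.84 ± 0.21 in CD4 cells for Id3 (adjusted p = 0.0144 and 0.0344), whose log2 fold changes were above 0 in both tissues and nearer to 0 in gut.

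The treatment difference of batch 190306 differed from that of the other batches for 5 or 6 of the 9 genes in each population, where 16.7% to 24.2% of all genes tested were called. The log2 values in CD8 spleen cells were -4.79 for Tcf7, -4.44 for Id3, -3.14 for Bach2, -6.76 for Dapl1 and -0.65 for Myb, with edgeR adjusted p-values of 0.0384 or less. In CD4 spleen cells they were -3.31 for Tcf7, -3.16 for Id3, 1.05 for Il7r, -2.17 for Bach2, -5.97 for Dapl1 and -1.15 for Myb (adjusted p of 0.0344 or less). CD8 gut cells gave -4.71 for Tcf7, -2.64 for Id3, 1.74 for Il7r, -2.42 for Bach2, -6.23 for Dapl1 and 0.48 for Satb1 (adjusted p of 0.0327 or less). CD4 gut cells gave -3.83 for Tcf7, 1.79 for Il7r, -0.88 for Bach2, -3.62 for Dapl1, 0.60 for Satb1 and -1.13 for Myb (adjusted p of 0.0461 or less). Each value rests on 1 library per group of batch 190306 and on a shift of that batch shared by the 4 populations. These values are not differences of single pairs, and the cause was not tested. Calls of Il7r in CD4 spleen, Bach2 in CD4 gut, Myb in CD8 spleen and Satb1 in both gut populations were lost without single libraries.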

How the results depend on the processing

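Within batches 181201 and 181212, Tcf7 kept its direction and its call in each population under every alternative run. Of single-gene values under all alternatives, 1817 kept direction and side of the threshold, 246 lost the call, 33 gained it and 19 reversed. The cause was not tested for any. DESeq2 called 1041 genes in CD8 spleen, 937 in CD4 gut and 848 in CD8 gut cells, 2 members higher in CD4 gut, and 1 member for CD8 against CD4 in spleen and 1 in gut. Leaving out 1 library gave 1562 to 1882 genes in CD4 spleen, 669 to 954 in CD8 spleen, 635 to 857 in CD4 gut and 849 to 1030 in CD8 gut cells. It gave 2 to 3 members higher and 0 to 1 lower in CD4 gut, 1 to 2 lower in CD8 gut, 0 to 1 for CD8 against CD4 in spleen, and 0 to 2 lower for gut against spleen in CD4 cells.

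Without the batch block, 872 genes were called in CD4 gut cells, no member (0) was lower for gut against spleen in CD4 treatment differences, and the own difference of batch 190306 had 0 members lower in each population, with 0 higher in CD4 spleen, 1 in CD4 gut and 1 in CD8 gut cells. Bach2 in CD4 gut cells was at 0.22 there. Without a batch term the own difference sets the anti-IL-2 library of batch 190306 against the other anti-IL-2 libraries only. The IgG libraries of that batch play no part in it, so it is then not a treatment difference. Its values without the block therefore do not check the result with the block, although the totals above include them. Genes called for the treatment difference between cell types numbered 52 in spleen and 1 in gut, against 120 and 11 with the block. Without the block, gut over spleen had 1 member lower and 0 higher in each cell type, CD8 over CD4 had 2 lower in gut, and Dapl1 reversed to 0.0578 in spleen. With 8 groups and batch in place of blocks, gut over spleen had 1 lower in each cell type, with 0 higher in CD4 and 1 in CD8 cells, CD8 over CD4 had 3 lower in each tissue, and Dapl1 in spleen and Id3 in CD8 cells reversed to 0.0116 and -0.0125. With limma voom, Dapl1 in spleen and Id3 in CD8 cells reversed to 0.10 and -0.0117, and 2 members were higher for CD8 over CD4 in gut. Without batch 190306, 0 members were higher for gut over spleen in either cell type, 2 were higher for CD8 over CD4 in gut, and Satb1 reversed to -0.15 in CD4 cells. Without the filter on low counts, the own difference of batch 190306 had 0 members higher in CD4 spleen.

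With 1 library left out, the own difference of batch 190306 had 0 to 1 members higher in each spleen population and 1 to 2 in each gut population, gut over spleen had 0 to 1 higher and 3 to 7 lower in CD4 and 1 to 2 higher in CD8 cells, and CD8 over CD4 had 1 to 2 higher in each tissue. The lowest and highest log2 fold changes of values that reversed were -0.21 and 0.03 for Satb1, -0.0489 and 0.137 for Il4ra and -0.43 and 5.92 for Alas2 in CD4 spleen, -0.0053 and 0.209 for Lef1, -0.56 and 0.18 for Il7r, -0.26 and 0.0801 for Satb1 and -0.53 and 0.0585 for Il1rl1 in CD8 spleen, and, for gut over spleen, -0.0368 and 0.115 for Satb1 in CD4 and -0.18 and 0.32 for Id3 in CD8 cells. Gut treatment tests rest on 1 IgG library in batches 181201 and 181212, and depth limits Dapl1 in gut.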
